A study of Mus musculus with 4 samples.

Results

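The regions described here are the ATAC-seq peaks that the authors assigned to 10 genes of the Hippo pathway and its TEAD transcription factors: Yap1, Wwtr1, Tead1, Tead2, Tead3, Tead4, Lats1, Lats2, Amotl2 and Ajuba. A peak was a member when its gene symbol in the authors' deposited table was one of these 10, which gave 69 of 80881 peaks. ATAC-seq reads out how accessible DNA is to a transposase, and it does not measure RNA or protein. The cells, called KPC in the labels, are a mouse lung adenocarcinoma line made from a KP lung tumour and transduced with Cas9, so Cas9 is shared by all groups. A lentiviral CRISPR activation vector carried a dRNA against Malat1, a nuclear long noncoding RNA (group mA2 dRNA), or a dRNA against luciferase, which mouse cells lack (group Con dRNA). Each group held 2 libraries, 4 in all, and the series describes them as biological replicates of cultures of this single line. The labels give no time, dose or clone.

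In the Hippo pathway the kinases Lats1 and Lats2 phosphorylate the coactivators Yap1 and Wwtr1 (the protein TAZ), which holds them in the cytoplasm or sends them to degradation. When the kinases are less active, Yap1 and Wwtr1 enter the nucleus, where they bind DNA mainly through the TEAD factors Tead1 to Tead4. Amotl2 and Ajuba act upstream: Amotl2, an angiomotin protein of cell junctions, binds Yap1, and Ajuba, a LIM-domain protein, restrains the LATS kinases. Amotl2 and Lats2 are also textbook targets of Yap1 and Wwtr1, the coactivators they restrain. Yap1 and Wwtr1 are known for their part in growth and repair of lung epithelium and in lung tumours.

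No peak of the 10 genes was called. A call means an adjusted p under 0.05 in the authors' deposited table, and 2.73% of all peaks were called in either direction, against 0 of 69 here. The smallest adjusted p among the members was 0.0660 in the authors' deposited table, at a Tead4 peak. Before adjustment, the authors' deposited table put 7 of the 69 peaks under a p of 0.05, 10.1% of them, beside 11.7% of all peaks. Of those 7 means, 6 were higher under the Malat1 guide and 1 was lower. Over all peaks, 7168 of the 9470 under that p were higher. The 7 member peaks belonged to Tead4, Wwtr1, Tead1, Amotl2 and Ajuba. The counts near the background share do not set these genes apart from other peaks.

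Read values below are group means of normalized reads, as the authors computed them for each peak, in mm10 coordinates; 99.8% of the peaks had 1 common width. The table also has 4 columns of single libraries whose names match no sample label, so they were not used. These means therefore carry no SD, and library depth is unknown here. The authors' p-value is thus the single guide to whether a gap is larger than replicate error, and it rests on 2 libraries a group. How their test estimated that error for each peak is not given here. Over all peaks the means summed to 13278580 reads under the Malat1 guide, against 12465466 under the luciferase guide. Promoter peaks were found at 4 of 7 epithelial markers (Krt8, Krt18, Krt19 and Cdh1), 3 of 5 lung epithelial, 3 of 5 fibroblast, 2 of 5 endothelial and 1 of 6 leukocyte markers, none of them called. At the lung markers Hopx, Scgb1a1 and Sftpb they lay no higher than the 5.96th percentile of promoter peaks, and the epithelial ones lay from the 23.5th to the 65.0th. The fibroblast markers Col1a2, Pdgfrb and Col1a1 lay at the 15.7th, 22.2nd and 77.4th. The endothelial markers Cldn5 and Kdr lay at the 5.87th and 9.02nd, and the leukocyte marker Cd68 at the 53.4th. No promoter peak was at Nkx2-1 or Sftpc, though all 5 lung marker genes had peaks, 36 in all. Promoter accessibility thus does not mark these cells as lung epithelium. Of 29 peaks at endothelial markers, 5 were called higher (17.2%, beside 2.73% of all peaks), all at Cdh5. That gene was singled out after its values were seen. Each other marker list had at most 1 call. Their part in the values below was not tested.

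Several promoters of these genes hold the letters that TEAD factors recognise, and these are shown because TEAD factors are the DNA-binding part of the pathway. The RefSeq promoter windows (build GRCm38.p6, the assembly that mm10 names) run from 250 bases before a start site to 50 bases after it. Windows were found for 8 of the 10 genes, all but Tead1 and Tead4, 12 windows in all. The TEAD core CATTCC, searched on both strands, stood in 8 of the 12 windows and at 6 of the 8 genes, and it stood in 14.7% of all 32851 windows and at 16.6% of all genes with a window. Of 12117 windows that a deposited peak overlaps, 1451 held it. The AP-1 letters TGANTCA, also searched on both strands, stood in 0 of the 12 windows and in 7.81% of all windows. Windows of 1 gene overlap, and the 2 Wwtr1 windows share 1 match, which left 10 separate matches. A match is a description of letters and does not show that a factor binds.

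Of the 10 matches, 5 lay inside a deposited peak, at 5 genes. These are printed with the pair near Ajuba, which falls just outside its promoter peak. The Tead3 matches outside its promoter peak are not printed, and they include a like pair just outside it, within chr17:28350709-28350723. Each line gives 30 bases from RefSeq on the strand of the gene, 5′ to 3′, with the match in capitals.
Yap1, chr9:8004720-8004749, minus strand: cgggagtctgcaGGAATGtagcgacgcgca
Wwtr1, chr3:57576029-57576058, minus strand: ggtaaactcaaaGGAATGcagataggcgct
Tead3, chr17:28350970-28350999, minus strand: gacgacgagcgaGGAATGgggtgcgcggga
Lats2, chr14:57746102-57746131, minus strand: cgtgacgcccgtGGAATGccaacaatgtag
Amotl2, chr9:102717727-102717756, plus strand: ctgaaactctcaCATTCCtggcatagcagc
Ajuba, chr14:54577830-54577859, minus strand: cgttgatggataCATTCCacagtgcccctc
Ajuba, chr14:54577808-54577837, minus strand: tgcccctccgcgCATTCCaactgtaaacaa

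Distances are counted from the start site of each RefSeq window, which can lie inside the gene: that of Amotl2 lies 713 bases past the outer end of the gene and that of Yap1 42 bases. From these sites the Yap1 match begins 141 bases upstream and that of Amotl2 65 bases upstream. The Lats2 match lies 4 bases past a start site, inside the peak that covers it. The Yap1 match lay 17 bp from the centre of its peak, the Tead3 match 26 bp and the Amotl2 match 61 bp. The 250 bases before the outer Wwtr1 start site, 207 of which lie inside the strongest promoter peak of the 10 genes, are shown as the context of a match in open chromatin.
Wwtr1, chr3:57575911-57576160, minus strand: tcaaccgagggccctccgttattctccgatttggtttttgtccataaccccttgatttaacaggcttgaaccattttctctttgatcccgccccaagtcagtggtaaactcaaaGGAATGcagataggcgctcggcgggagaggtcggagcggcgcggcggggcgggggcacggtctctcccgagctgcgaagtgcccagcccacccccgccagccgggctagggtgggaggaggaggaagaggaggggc

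Promoter peaks of these genes held reads with either guide, and none was called. A promoter-class peak was found for 9 of the 10 genes, all but Lats2. For the peak nearest the start site of each, 6 means were higher and 3 lower with the Malat1 guide, and the largest gap was 1.21-fold. The adjusted p of these 9 peaks ran from 0.719 to 0.9999 in the authors' deposited table. A standard error of 0.11 to 0.38 on the log2 scale is implied for them. It comes from the authors' p-value of the peak itself or, where that p was large, from peaks of like depth. Gaps within that standard error were not detectable at this depth, and larger ones could also go uncalled. The Wwtr1 exon peak described below differed by 0.40 with an implied standard error of 0.15 and was not called.

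The promoter levels spanned a wide range between genes. These peaks have 1 width, but what else sets the read count at a locus was not tested, so the order describes reads only. The Wwtr1 promoter peak was the strongest, with 1087 reads under either guide, at the 97.0th percentile of all promoter peaks. Amotl2 followed with 944 reads against 891 (Malat1 guide first, here and below), at the 94.0th percentile. The Tead4 promoter peak held 796 against 693 reads, at the 88.7th percentile. Lats1, Tead3 and Tead1 lay in the middle, with 310 against 375, 309 against 317 and 309 against 294 reads. Yap1 held 233 against 208 and Ajuba 186 against 210 reads. Tead2 had the weakest promoter peak, 86.8 against 82.4 reads, at the 19.9th percentile, and no other peak. With no error per mean, neighbours in this order cannot be separated.

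**Figure D1:**
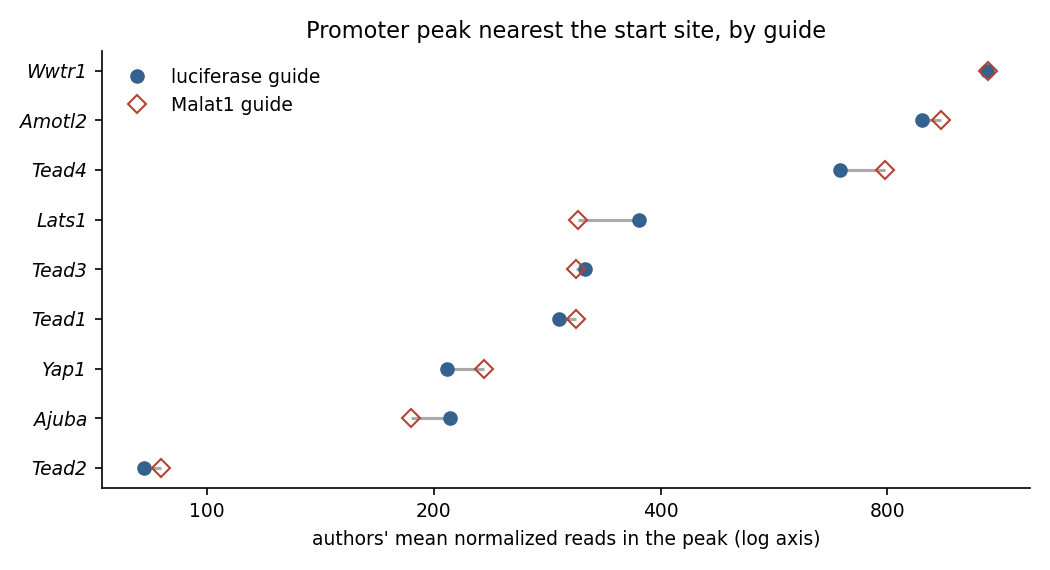
Authors' mean normalized reads (log axis) in the promoter peak nearest the start site of 9 genes, with the luciferase guide (filled circles) and the Malat1 guide (open diamonds). Levels run from about 85 reads at Tead2 (84.6 over both groups) to 1087 at Wwtr1, and the markers of 1 gene lie close together, at most 1.21-fold apart.

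Over all 69 peaks the lean towards higher means was small and depended on how the groups were scaled. With the Malat1 guide 50 of 69 means (72.5%) were higher, beside 60.8% of all peaks. The median difference was 0.10 on the log2 scale, beside 0.09 over all peaks, and differences ran from -0.96 to 1.46. The median of all peaks is itself above 0, and once differences were centred in 4 ways (by that median, by a running median over abundance, per chromosome or per 10 Mb window) 35 to 39 of the 69 were higher. The 54 peaks more than 3 kb from a start site had a median of 0.22, beside 0.11 over all such peaks, and the 15 nearer ones 0.00, beside 0.07. Members passed the 2-fold mark at 4 of 69 peaks (5.80%), and all peaks at 7.67%. By class, the members were 43 intron, 12 promoter, 7 intergenic, 5 exon and 2 5′ UTR peaks. Peaks of 1 gene are not replicates of each other, and 25 of the 69 belong to Tead1. Without Tead1 the median was also 0.10, a check added after the values were seen. Tead4 kept 7 higher means and Ajuba 5 lower ones under every centring, Wwtr1 had 5 or 6 higher of 8, and the counts of Yap1 (1 to 3 higher of 5), Tead1 (11 to 14 of 25) and Amotl2 (1 to 4 of 4) moved.

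**Figure D2:**
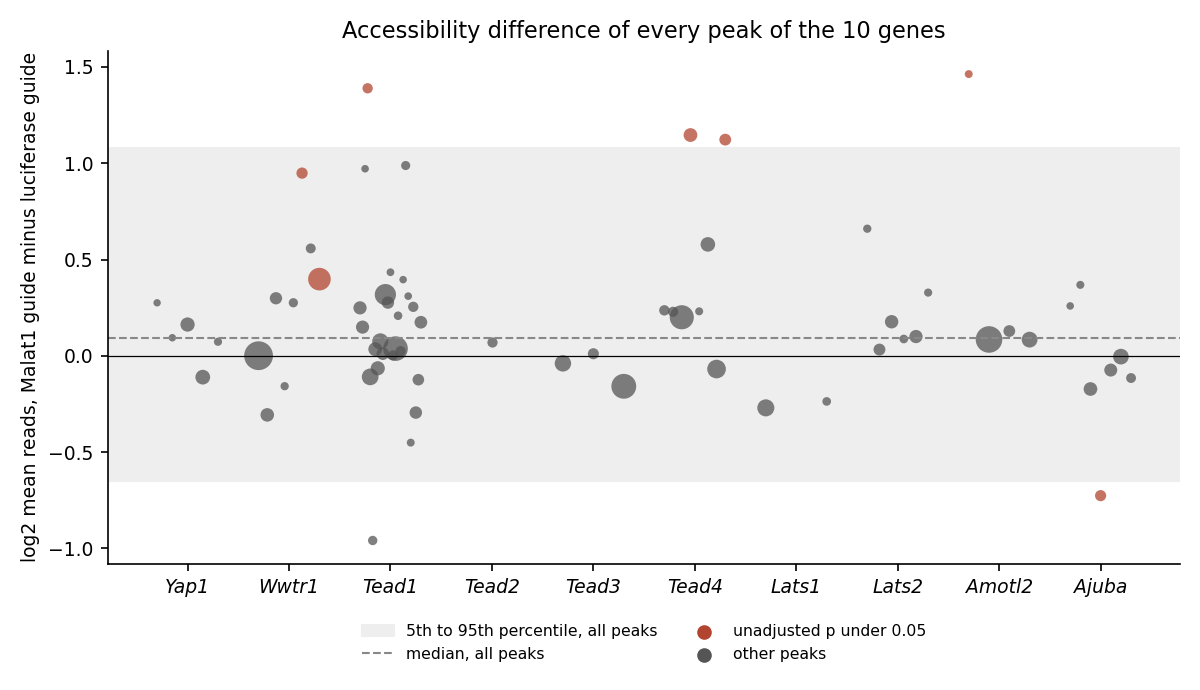
Difference of the authors' log2 group means (Malat1 guide minus luciferase guide) for each of the 69 peaks, by gene and ordered along it, with dot area rising with mean reads, the range of all peaks less 5% at either end in grey and their median dashed. The 7 peaks with an unadjusted p under 0.05 are red, 6 of them above 0, and most other peaks lie near the median of all peaks.

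Of the coactivators, Yap1 differed little and Wwtr1 had its largest gaps deep in the gene. Yap1 (gene ID 22601, chr9:7931999-8004638) is the main effector of the pathway and had 5 peaks, 4 with the higher mean, from -0.11 to 0.28. Its second promoter peak, 0.903 kb past the start site, held 231 against 249 reads, and its intergenic peaks held 17.0 against 14.0 and 17.8 against 16.7. Every adjusted p for Yap1 was at least 0.962 in the authors' deposited table.

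Wwtr1 (gene ID 97064, chr3:57455644-57575910) encodes the Yap1 paralogue TAZ and had 8 peaks, 6 with the higher mean. An exon peak 73.8 kb past the start site, chr3:57501680-57502080, held 737 against 559 reads, 1.32-fold. Its difference of 0.40 had an implied standard error of 0.15, with a p of 0.00653 (the authors' deposited table lists adjusted p 0.134). An intron peak at 65.3 kb, chr3:57510250-57510650, held 153 against 79.2 reads, 1.93-fold, and the authors' deposited table lists the same adjusted p, 0.134. The 4 peaks from 63.2 to 73.8 kb all had the higher mean, by 0.28 to 0.95, and the promoter peak differed by 0.00. Near the promoter, an intron peak at 1.42 kb leaned the other way, with 174 against 215 reads (adjusted p 0.826 by the authors' deposited table). The 10 Mb window around Wwtr1 had a median difference of 0.03, below that of all peaks, and 0 of 61 other peaks within 500 kb were called.

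Among the TEAD factors, which bind the DNA, Tead4 stood closest to the threshold. Tead4 (gene ID 21679, chr6:128227143-128300813), a factor known for its part in the trophectoderm of the embryo, had 8 peaks, 7 with the higher mean, and a median difference of 0.23. The peak with the smallest p of all members lies 24.9 kb past the start site, chr6:128275520-128275920, in sequence the authors annotated as 5′ UTR. It held 183 reads under the Malat1 guide against 84.1 under the luciferase guide, 2.18-fold, with an implied standard error of 0.36 on the difference of 1.12. Its p was 0.00208 and its adjusted p 0.0660 in the authors' deposited table. An intron peak at 4.02 kb, chr6:128296404-128296804, held 279 against 126 reads, 2.21-fold (the authors' deposited table lists adjusted p 0.0879). A further intron peak at 14.7 kb held 280 against 188 reads (adjusted p 0.465 by the authors' deposited table). A strong intron peak between the last of these and the 5′ UTR peak, at 18.3 kb, held 411 against 431 reads, and the promoter peak differed by 0.20. Large and small gaps thus alternated along the gene.

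The region around Tead4 held called peaks of other genes: 6 of 70 peaks within 500 kb were called higher and 0 lower. That share, 8.57%, stands beside 2.73% of all peaks called in either direction. Around the other members it ran from 0% (Wwtr1 among them) to 6.35% at Amotl2, where 4 of 63 were called, all higher. The 10 Mb window around Tead4 had a median difference of 0.16 and chromosome 6 one of 0.04. With differences centred on that window the adjusted p of the leading Tead4 peak was 0.188, and over the 4 centrings it ran from 0.0996 to 0.188. Whether the Tead4 values follow their surroundings was not tested.

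Tead1 (gene ID 21676, chr7:112679356-112906784), the TEAD first described in muscle gene control, had the most peaks, 25, of which 19 had the higher mean. The authors assigned 8 of them before the RefSeq start, in sequence they annotated as intron of another transcript. In that stretch the peak at 35.04 kb upstream, chr7:112643875-112644275, held 127 against 48.6 reads, 2.62-fold, with a difference of 1.39 and an implied standard error of 0.48. Its adjusted p was 0.0964 in the authors' deposited table. A peak at 31.5 kb upstream, chr7:112647433-112647833, leaned the other way and held the lowest difference of all members, -0.96, with 41.8 against 81.3 reads (the authors' deposited table lists adjusted p 0.513). The peak between them, at 33.2 kb, held 315 against 339 reads. Neighbouring Tead1 peaks less than 4 kb apart therefore had gaps in opposite directions, none of them called. The strongest Tead1 peak, 40.8 kb into the gene, held 788 against 768 reads, and the next, at 17.7 kb, 623 against 500 (adjusted p 0.462 by the authors' deposited table).

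**Figure D3:**
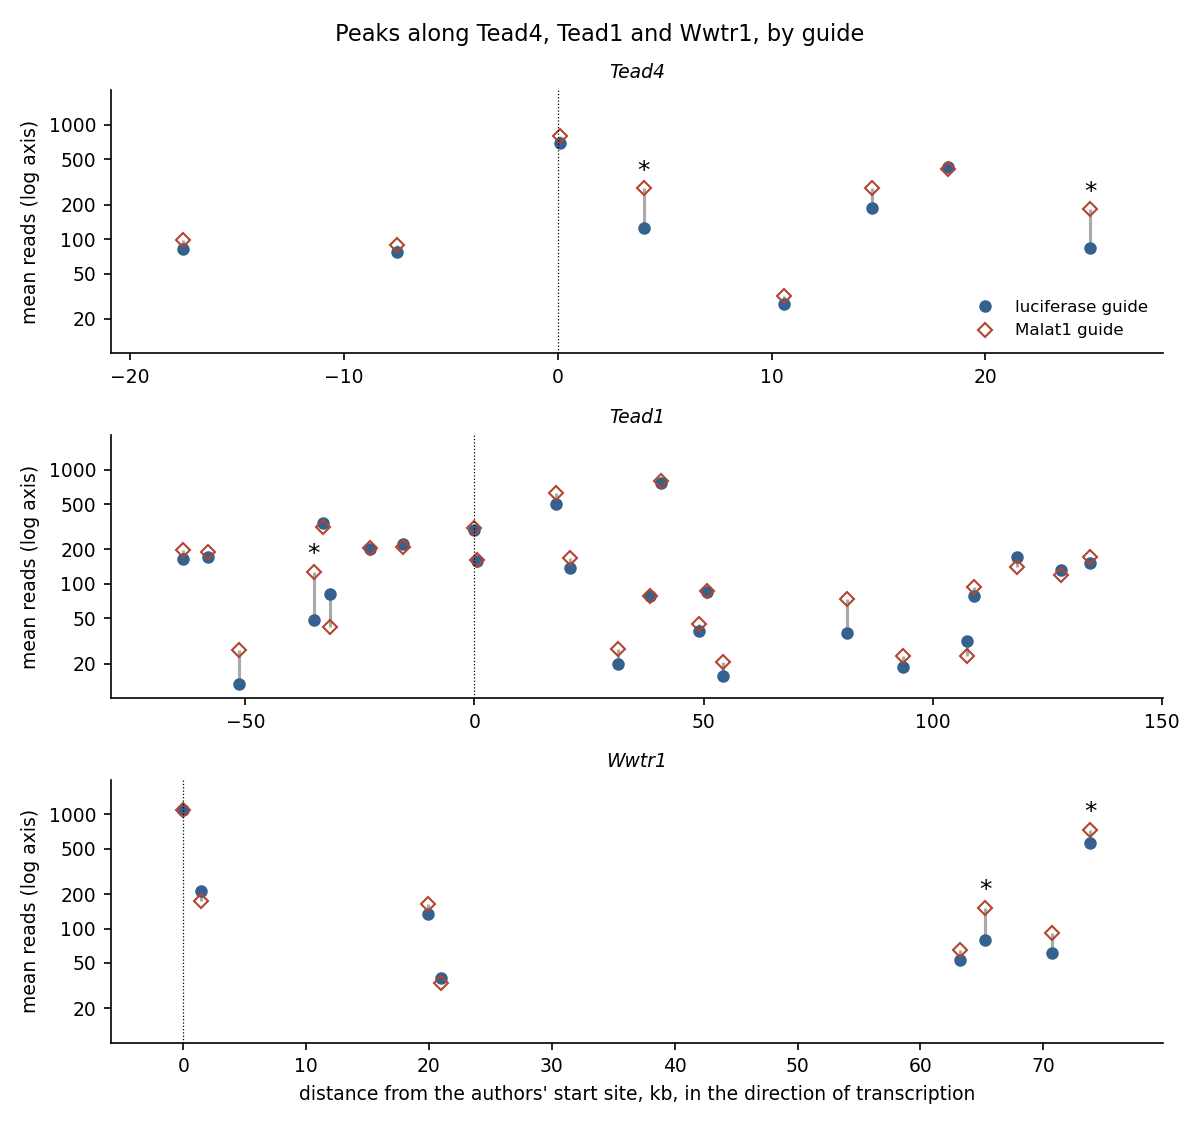
Authors' mean normalized reads (log axis) of every peak of Tead4, Tead1 and Wwtr1 against distance from the authors' start site in kb, with the luciferase guide (filled circles) and the Malat1 guide (open diamonds), and a star over peaks with an unadjusted p under 0.05. The starred peaks lie at 4.02 and 24.9 kb in Tead4, at 35.04 kb before Tead1 and at 65.3 and 73.8 kb in Wwtr1, away from the promoters.

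Tead2 and Tead3 showed small gaps. Tead3 (gene ID 21678, chr17:28331671-28350805), a TEAD known from the placenta, had 3 peaks, and its exon peak at 9.39 kb was the strongest, with 750 against 837 reads. The adjusted p of that peak was 0.848 in the authors' deposited table. The Tead3 intron peak held 110 against 109 reads. Tead2 (gene ID 21677, chr7:45215792-45233468), an early embryonic TEAD, had the single promoter peak given above (the authors' deposited table lists adjusted p 0.995).

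The kinases Lats1 and Lats2 had gaps that were not called. Lats1 (gene ID 16798, chr10:7681200-7716461) had 2 peaks, both with the lower mean: the promoter peak, 0.83-fold, and an intron peak with 40.6 against 47.8 reads. The adjusted p was 0.756 and 0.979 in the authors' deposited table. A second peak over the Lats1 start, chr10:7680961-7681361, was assigned to the neighbour Pcmt1, and is named after its values were seen; it held 141 against 190 reads (adjusted p 0.627 by the authors' deposited table). The 10 Mb window around Lats1 had a median difference of -0.32, and centred on it the Lats1 promoter difference turned to 0.05 and both means were higher.

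Lats2 (gene ID 50523, chr14:57689662-57746212) had 6 peaks, all with the higher mean, by 0.03 to 0.66, and 4 to 6 of them stayed higher after centring. The peak over its RefSeq start, chr14:57745963-57746363, which the authors placed 12.03 kb from the start of another transcript, held 201 against 178 reads. Its adjusted p was 0.957 in the authors' deposited table. The largest Lats2 gap was at an intergenic peak 19.3 kb upstream, with 43.2 against 27.3 reads (the authors' deposited table lists adjusted p 0.745).

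Of the upstream regulators, Amotl2 held the largest difference of all members at a weak distant peak. Amotl2 (gene ID 56332, chr9:102717091-102733418) had 4 peaks, all with the higher mean. An intergenic peak 34.8 kb upstream, chr9:102681518-102681918, held 39.9 against 14.5 reads, 2.76-fold, with a difference of 1.46 and an implied standard error of 0.70. Its p was 0.0358 and its adjusted p 0.357 in the authors' deposited table. The other 3 Amotl2 peaks differed by 0.08 to 0.13.

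Ajuba (gene ID 16475, chr14:54567469-54577661) had 7 peaks, 5 of them with the lower mean. All 5 that lie in the gene had the lower mean and the 2 upstream ones the higher mean. The promoter-class peak 0.608 kb past the start site, chr14:54576550-54576950, held 85.1 against 141 reads, 1.65-fold lower, with a difference of -0.73. Its p was 0.0231 and its adjusted p 0.283 in the authors' deposited table, and it is the single member with an unadjusted p under 0.05 and a lower mean. The peak over the start site held 186 against 210 reads and the intron peak at 4.40 kb held 280 under either guide.

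How large a gap had to be for a call depended on depth. Among peaks with under 50 reads over both groups, the called ones differed by at least 1.60 on the log2 scale at their 5th percentile, and none of the 18 members of that depth reached it. From 50 to 200 reads that value was 1.01, and 2 of 31 members passed it. At 200 reads or more it was 0.46, and 2 of 20 members passed it. Of 7481 other peaks within 1.2-fold of the depth of the leading Tead4 peak, 301 differed as much or more, and 78.4% of those were called. For the Tead4 intron peak that share was 88.5% of 130 peaks, and for the leading Tead1 peak 86.5% of 245. These shares include larger gaps, and the smallest called difference at those depths was 0.93, 0.77 and 1.06 on the log2 scale. With an adjusted p under 0.1 they would be called, 3 of 69 (4.35%), beside 4.02% of all peaks.

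**Figure D4:**
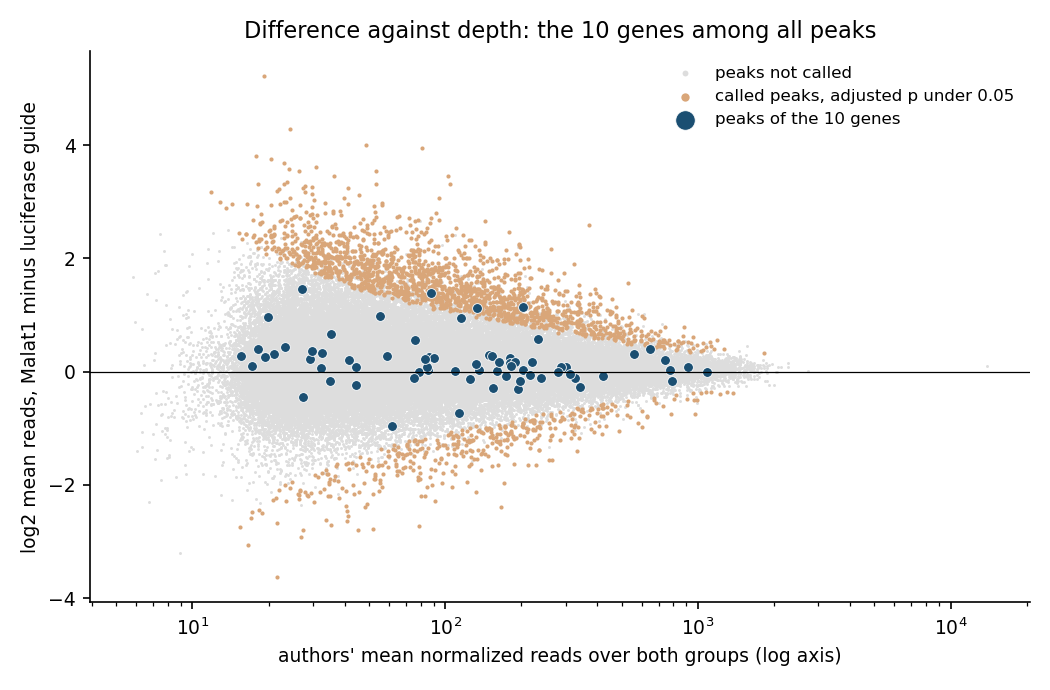
Difference of the log2 group means against the authors' mean normalized reads over both groups (log axis) for all 80881 peaks, with called peaks in tan and the 69 peaks of the 10 genes in blue. None of the 69 was called, and the leading Tead1 and Tead4 peaks, between 87.9 and 203 reads, lie among called peaks of similar depth and difference.

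Other genes of the pathway gave a few calls, at a share near that of all peaks. The lists name 58 further genes, of which 54 had 534 peaks. Of these 534 peaks, 10 were called higher and 2 lower (9 genes), 2.25% of them beside 2.73% of all peaks, and their median difference was 0.11. The balance towards higher calls went with the scaling: the 4 centrings gave 5 or 6 higher and 5 to 7 lower calls. Core kinases and scaffolds, such as Stk3 and Sav1, which switch on the LATS kinases, had 0 calls among 84 peaks of 12 genes. The authors' deposited table lists 5 with unadjusted p under 0.05, 5.95% beside 11.7% of all peaks. Their leading peak, in an intron of Stk3, held 198 against 111 reads (adjusted p 0.0970 by the authors' deposited table). A Stk38l peak held 58.2 against 23.1 reads and was not called.

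Junction and cytoskeletal regulators had 2 higher calls and 0 lower among 171 peaks of 18 genes, 1.17% beside 2.73% of all peaks. The Amotl1 peak, in an intron of the angiomotin paralogue of Amotl2, rose 2.44-fold from 102 to 248 reads (the authors' deposited table lists adjusted p 0.00124). An intron peak of Rassf5, a RAS-association protein that can bind the Hippo kinases, rose 2.22-fold from 90.2 to 200 reads (adjusted p 0.00693 by the authors' deposited table). Both calls held under each of 4 centrings of the differences. A Pard3 peak, at a polarity gene, held 36.7 against 90.0 reads (the authors' deposited table lists adjusted p 0.0626), and was called lower with each centring (0.0346 to 0.0420). A Fat2 peak held 269 against 146 reads and was not called.

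TEAD cofactors include the vestigial-like proteins, which bind TEAD proteins in place of Yap1. This list had 2 higher calls and 0 lower among 45 peaks of 6 genes, 4.44% beside 2.73% of all peaks. The Vgll3 promoter peak, its single peak, rose 1.79-fold from 212 to 380 reads, and a 3′ UTR peak of Vgll4 rose 1.55-fold from 436.9 to 678.6. Their adjusted p was 0.0350 and 0.0414 in the authors' deposited table, and each centring ended both calls, with 0.0728 to 0.307 and 0.0823 to 0.344. The leading Vgll2 and Ncoa3 peaks held 63.4 against 26.8 and 128 against 70.6 reads, and were not called.

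A signature of Yap1 and Wwtr1 target genes, known from human cancers, had 6 higher and 2 lower calls among 248 peaks of 20 genes, 3.23% beside 2.73% of all peaks, with a median difference of 0.16. After centring there were 3 or 4 higher and 4 to 6 lower calls. By the authors' deposited table, 17.3% of the list's peaks passed 0.05 before adjustment, 29 higher and 14 lower, beside 11.7% of all peaks. Of the 8 calls, 0 lay within 3 kb of a start site and 3 within 50 kb. Asap1, an ARF GTPase-activating protein, had 3 of the higher calls among 31 peaks. They were led by an intron peak that rose 3.06-fold from 81.9 to 250 reads, and the others were intergenic, 87.8 and 239.7 kb upstream. A peak 35.1 kb upstream of Ccn1, a matricellular protein and a standard readout of Yap1 activity, rose 1.42-fold from 626 to 888 reads (adjusted p 0.0214 by the authors' deposited table). Tgfb2 and Myof had 1 higher call each, at 3.50-fold and 1.81-fold. That of Tgfb2 lay in an intron at 33.8 kb, and that of Myof was intergenic, 147 kb from the start site. The 2 lower calls were neighbouring peaks 580 and 582 kb from Igfbp3, which fell 2.30-fold from 396 to 172 reads and 2.15-fold from 219 to 102. The members Lats2 and Amotl2 belong to the same signature and had no call.

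Not every signature call held after centring: the Ccn1 call held by chromosome (0.0163) and ended under the other centrings (0.0807 to 0.381), that of Myof ended under all (0.0882 to 0.199), and that of Tgfb2 ended along abundance (0.0554). Of the Asap1 calls, 1 ended by chromosome (0.117) and by window (0.195). The leading Axl and Rbms3 peaks held 248 against 109 and 51.0 against 15.2 reads (the authors' deposited table lists adjusted p 0.0625 and 0.0628). Gene assignments are the authors' and often name a distant neighbour, as at Igfbp3.

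**Figure D5:**
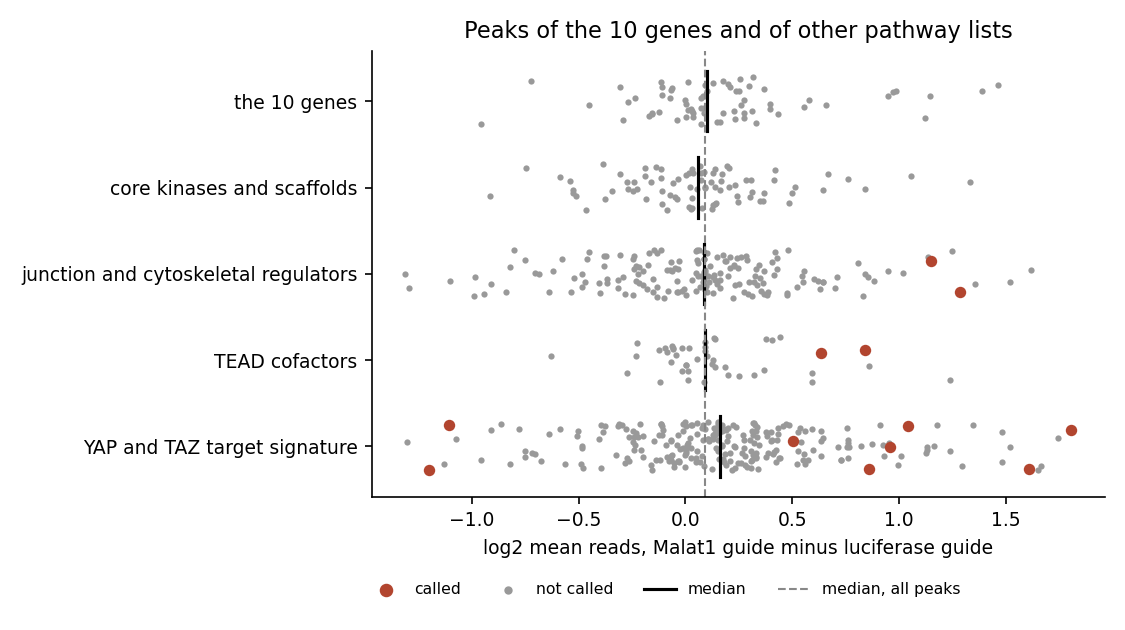
Difference of the authors' log2 group means (Malat1 guide minus luciferase guide) for the peaks of the 10 genes and of 4 further pathway lists, with called peaks in red, list medians as black bars and the median of all peaks dashed. The 10 genes and the core kinases have no red point, and the target signature has 8.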

How the data were processed

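Chromatin accessibility in 4 libraries of a mouse lung adenocarcinoma line was processed by the authors. The submitters' processing notes name the build mm10 and the tools Bowtie2, Picard, FastQC, MACS2, ChIPseeker, DiffBind and deepTools. Not given in the sources used here are versions and parameters, how duplicates and the transposase shift were treated, how libraries were scaled, and whether replicates were pooled for peak calling; each could move the group means.

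The deposited table gives, per the file headers, the log2 of the authors' mean normalized reads in each group, a log2 fold, and a p-value with its adjusted value. The header names dmA12 and dLuc were taken as mA2 dRNA and Con dRNA, the single contrast of the series. The deposited log2 fold is much smaller than the difference in group means (a median of 0.10 of it over the members). At 587 of all 80881 peaks the 2 have unlike signs. The differences given here are those of the group means. The deposited p-value need not test that same difference, so the implied standard errors and the centred tests are approximate. The 4 columns of single libraries match no label and were not used, so none of the planned fits per library was run.

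Calls used the deposited adjusted p-value under 0.05, which a Benjamini-Hochberg adjustment over all peaks matched (largest gap 7.40e-06). An implied standard error is the difference over the two-sided normal score of the p-value, or, for scores under 1, a running median over 1001 peaks of like depth. With it, differences were centred in 4 ways (median of all peaks, running median over abundance, chromosome, 10 Mb window), tested again and adjusted over all peaks. The implied standard error, the centring on the median of all peaks and the adjustment were run on simulated data with a uniform shift (Python 3.11.15, SciPy 1.17.1). There each p was the normal tail of the simulated difference itself. The simulation therefore cannot show how well the implied standard error holds for the authors' p-values. The centrings along abundance, by chromosome and by window were not simulated.

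Named are, for each gene, the promoter peak nearest the start site and the peak with the smallest p, the members with extreme differences, and, per pathway list, every called gene and the next 2 by p. Further member peaks are given for context. Members and lists were chosen with earlier results of these data known. All 10 members' gene IDs were found in RefSeq.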

Additional observations from a re-analysis of the deposited data

How the results depend on the processing

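The count of 0 called members was also 0 under 4 centrings, at an adjusted p under 0.01, with peaks of at least 20 reads, and for peaks up to 3 kb or 50 kb from a start site; at an adjusted p under 0.1 it was 3. The count at an unadjusted p under 0.05 (7, with 6 higher and 1 lower) was 7 under each centring. The split was 6 and 1 on the median of all peaks, and 5 and 2 under the other centrings. The median difference of 0.0999 was 0.0082, 0.0256, 0.0235 and 0.0274 after centring on all peaks, along abundance, by chromosome and by window, 0.0004 within 3 kb, 0.0839 within 50 kb, 0.0859 with at least 20 reads and 0.0129 with the authors' log2 fold. The 12 calls of the other pathway genes (10 higher, 2 lower) were 11 (6 and 5), 10 (5 and 5), 13 (6 and 7) and 10 (5 and 5) under the centrings in the same order, and became 19 at 0.1, 6 at 0.01, 2 within 3 kb and 6 within 50 kb.

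Of 17 named member peaks none was called under any centring (68 tests, lowest adjusted p 0.0996). Centring turned the direction at 6 promoter peaks, in 15 of these 68 tests, where the difference was smaller than the value subtracted: Yap1 to -0.0187 by window; Wwtr1 to -0.0913, -0.0603 and -0.0301 on the median, along abundance and by window; Tead1 to -0.0169, -0.0758 and -0.1025, and Amotl2 to -0.0069, -0.0449 and -0.0164, on the median, by chromosome and by window; Tead2 to -0.0176, -0.0184, -0.0765 and -0.0476 under all; and Lats1 to 0.0451 by window. Over all peaks the share of higher calls was 81.5%, and 68.7% after centring on the median. No paired analysis was possible because the columns of single libraries carry no sample label; leaving out a library, a count model, limma and the motif search within peaks were not run for lack of labelled columns or a genome. Depth limits weak peaks most.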
